A study of Homo sapiens with 6 samples.

Results

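Aldehyde dehydrogenases were followed in A549 cells, an established human line from a lung adenocarcinoma, that carried either a hairpin against TIGD1 or a control hairpin. The set holds 10 genes chosen by symbol, with earlier results of these data known (ALDH1A1, ALDH1A3, ALDH1B1, ALDH2, ALDH3A1, ALDH3A2, ALDH3B1, ALDH6A1, ALDH7A1 and ALDH9A1). They were found through every probe set that the platform annotation gives to exactly 1 of these symbols. All 10 genes were measured, by 26 of 45278 probe sets with a single gene symbol and among 18244 genes in all. Each group had 3 arrays, those labelled shControl (A549 with the shNC lentivirus) and those labelled shTIGD1 (A549 with the shTIGD1 lentivirus). No other group, dose or time point was compared, and both groups had been exposed to a lentivirus. The labels name 1 hairpin per group and do not say whether the replicates were separate cultures, so p-values reflect only how these arrays spread, which can be technical.

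Aldehyde dehydrogenases oxidize reactive aldehydes to carboxylic acids, with NAD+ or NADP+ as the electron acceptor. Their substrates come from retinol, ethanol, lipid peroxidation, membrane lipids, amino acids and amines. The cytosolic enzymes ALDH1A1 and ALDH3A1 are well known as abundant in A549 cells. ALDH1A1 activity is also widely used as a stem cell marker in lung cancer research.

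The target sequences of the hairpins are shown because they define the groups, as the labels give them, 5′ to 3′ and in lower case throughout.
shTIGD1: ctgctaacacaacatccat
shNC: ttctccgaacgtgtcacgt

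The targeted transcript itself did not pass the test. TIGD1 read 6.96, 6.93 and 6.85 on the arrays labelled shControl and 6.88, 6.84 and 6.86 on those labelled shTIGD1, as log2 signals (log2 difference -0.06, SE 0.04, limma adjusted p = 0.389). The groups overlapped, and the directions below are those of the labels. The 9 markers of epithelial cells and A549, which include ALDH1A1 and ALDH3A1, had mean signals of at least 8.07. The keratin genes KRT7, KRT8 and KRT18 had mean signals of 13.2 to 14.2 in both groups, while the adhesion genes CDH1 (0.66) and EPCAM (0.87) passed the test as higher. Such markers do not identify the line. Among markers of other cells, 5 of 7 immune, 4 of 5 endothelial and 3 of 5 fibroblast genes had a mean log2 signal under 5. LYZ (3.13) and LUM (2.94 and 3.02 in shControl and shTIGD1) were the lowest of the immune and fibroblast lists. The highest means were 8.21 in the immune, 5.39 in the endothelial and 5.69 in the fibroblast list. Of these 17 genes, ITGAM (-0.19) and COL3A1 (-0.56) passed the test as lower, ITGAM turning positive under the control levellings described below. The signal summed over the fibroblast markers, on the linear scale, ran from 158 to 173 on the arrays labelled shControl and from 135 to 148 on those labelled shTIGD1. COL3A1 accounts for most of that drop, while the median log2 difference of the 5 fibroblast genes was 0.06, with COL1A1 (0.13), DCN (0.06) and LUM (0.08) above 0 and not past. PDGFRB, the remaining gene, lay below 0 and did not pass. For PDGFRB and COL3A1, every array labelled shTIGD1 was below every control array. The part of these markers in the results was not tested.

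Comparing the groups asks what the hairpin against TIGD1 does to transcript levels, and the aldehyde dehydrogenases differed little. Taking the brightest probe set of each gene, 1 of 10 members passed as higher (ALDH3A2), 1 as lower (ALDH3A1) and 8 did not pass at a limma adjusted p of 0.05. The share of all genes that passed was 23.8%, with 9.81% higher and 14% lower, so 2 of 10 members is near that share. All 10 members had a mean signal of at least 6. In a fit of the 10758 genes at or above 6, 2200 passed as higher and 3100 as lower, with 2 and 1 of the 10 members. That is a larger share of genes than over all genes or among the members. No member reached a 1.5-fold change, which 1.11% of all genes did along with the test. The median log2 difference was 0.03 over the members and -0.04 over all genes. The groups did not overlap for 4 members, 3 above and 1 below the control arrays, where 42.3% of all genes did not (16.9% above and 25.5% below). In absolute size, 8 of 10 members changed by less than the median gene (0.10). In simulated data of the same size the test recovered 32% to 58% of genes changed 1.2-fold over 11 draws. In such data it thus missed many changes of that size. The simulated draws gave 172 to 187 calls, where the deposited data gave 4340. With so many more calls the adjusted threshold is less strict, so the simulated share does not carry over to the members. For the 8 members that did not pass, the interval of the change in the deposited signals of the brightest probe set stopped short of 1.2-fold. The lowest limit was -15.3% (ALDH1B1) and the highest was 14.2% (ALDH6A1). Smaller changes within these intervals remain possible.

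**Figure D1:**
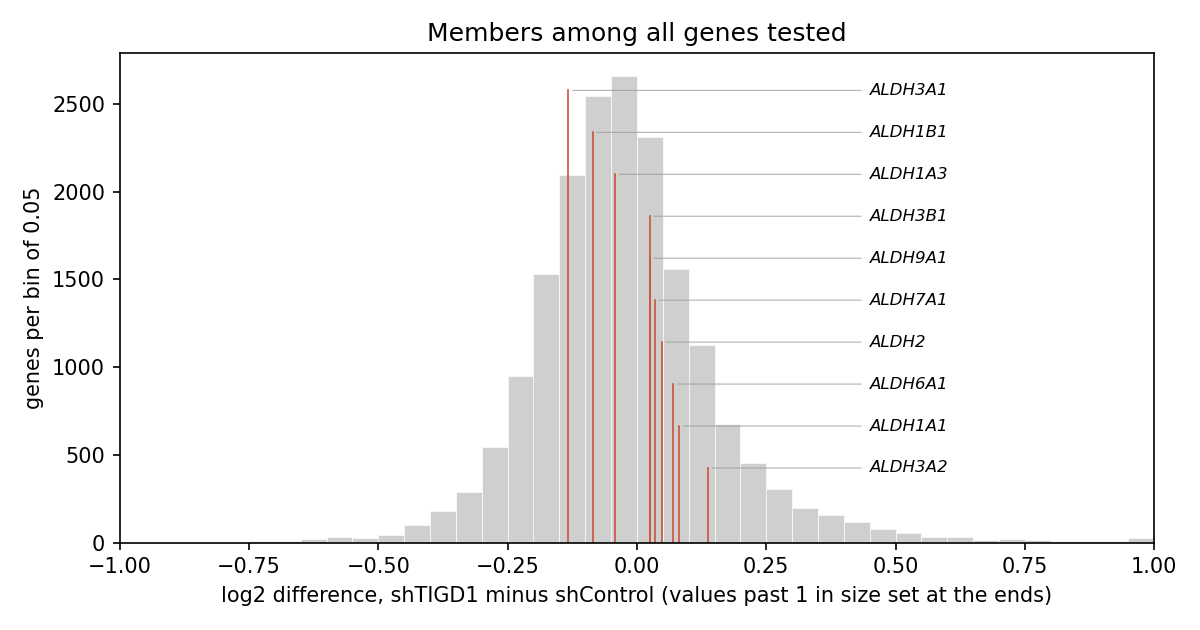
Distribution of log2 differences, shTIGD1 minus shControl, for all 18244 genes (grey bars, genes per bin of 0.05 on the log2 scale), with a red line at the value of each member (the heights of the red lines carry no value). All 10 members lie between -0.13 and 0.14, in the central part of the distribution.

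These directions depend on how the arrays are levelled. Hybridization controls, bacterial transcripts added in fixed amounts before hybridization, averaged 10.46 on the arrays labelled shControl and 10.25 on those labelled shTIGD1. Poly-A controls, added to the RNA before labelling, averaged 7.15 and 6.81. Levelling the arrays on these controls adds 0.21 or 0.33 to the log2 difference of every gene, and the median of all genes moves from -0.04 to 0.17 or 0.30. All differences below are as deposited unless stated, and differences relative to the median of all genes are the same under either levelling. Relative to that median, ALDH3A1 stood at -0.10, ALDH3A2 at 0.17 and ALDH1A1 at 0.12.

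**Figure D2:**
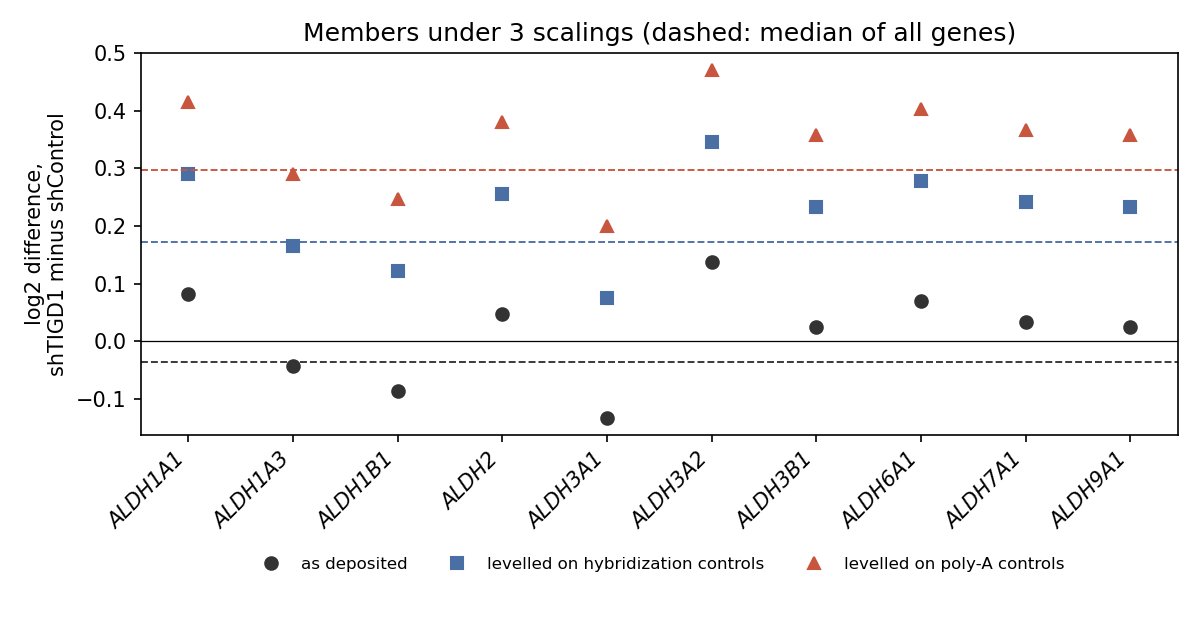
Log2 difference, shTIGD1 minus shControl, of the brightest probe set of each member (x axis) as deposited (circles), levelled on hybridization controls (squares) and levelled on poly-A controls (triangles); dashed lines give the median of all genes under each. The falls of ALDH1A3, ALDH1B1 and ALDH3A1 turn into rises under both control levellings, while ALDH3A1 remains the lowest and ALDH3A2 the highest of the 10.

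Promoter sequence is shown for the 2 genes with the clearest rises in the probe sets described below, ALDH3A2 and ALDH9A1, and for ALDH1A1, whose probe sets were all above the control arrays. Each is the stretch of 250 bases before the annotated start, from RefSeq (GRCh38.p14), read on the gene's own strand; 8 of the 10 members had an entry. Capitals mark any match to 6 motifs, each searched on both strands. The core of the antioxidant response element was searched as TGACNNNGC. The core of the xenobiotic response element was searched as GCGTG. The basal promoter elements were searched as CCAAT for the box of that name, as TATAAA for the TATA box and with the letters GGGCGG for the GC box. The half-site that nuclear receptors bind was searched as AGGTCA. Those letters do not overlap one another in these 3 windows. ALDH3A2 lies on the plus strand at chr17:19647886-19648135, ALDH9A1 on the minus strand at chr1:165698563-165698812 and ALDH1A1 on the minus strand at chr9:72953054-72953303.
ALDH3A2: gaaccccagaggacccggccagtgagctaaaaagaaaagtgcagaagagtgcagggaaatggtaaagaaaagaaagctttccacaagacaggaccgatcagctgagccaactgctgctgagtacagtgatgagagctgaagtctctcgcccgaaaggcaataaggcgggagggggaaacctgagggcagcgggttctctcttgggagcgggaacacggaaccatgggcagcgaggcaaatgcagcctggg
ALDH9A1: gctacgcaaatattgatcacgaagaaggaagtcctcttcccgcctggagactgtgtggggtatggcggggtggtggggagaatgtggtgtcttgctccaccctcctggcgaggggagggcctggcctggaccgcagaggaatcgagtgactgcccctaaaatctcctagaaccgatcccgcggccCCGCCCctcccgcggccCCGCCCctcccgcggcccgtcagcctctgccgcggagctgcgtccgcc
ALDH1A1: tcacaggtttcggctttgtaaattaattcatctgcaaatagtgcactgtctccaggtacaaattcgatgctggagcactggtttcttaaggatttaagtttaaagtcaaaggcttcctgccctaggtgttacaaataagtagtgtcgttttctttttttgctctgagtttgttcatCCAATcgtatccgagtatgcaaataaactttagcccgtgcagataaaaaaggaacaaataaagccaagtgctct

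The 3 windows have little in common. ALDH9A1 holds GC boxes at 65 and 48 bases before the start, ALDH1A1 holds a CCAAT at 74 bases before it, and ALDH3A2 holds none of the 6. Base composition differed as well, with 67.2% G and C in ALDH9A1, 55.6% in ALDH3A2 and 38.4% in ALDH1A1, against a median of 58.0% over 27305 promoters. The antioxidant core was found in 0 of 8 member windows and in 11.0% of all promoters, and the xenobiotic core in 1 of 8 (ALDH1A3) against 31.9%. CCAAT occurred in 5 of 8 against 33.0%, GC boxes in 4 of 8 against 42.3%, and TATAAA and AGGTCA in 0 of 8 against 11.1% and 12.1%. A match is a description of letters and not a binding site, and no match says only that these letters are not in this window.

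The retinal-oxidizing members come first. ALDH1A1, a cytosolic enzyme that makes retinoic acid from retinal, read 14.03, 14.05 and 14.07 on the arrays labelled shControl and 14.10, 14.16 and 14.13 on those labelled shTIGD1 with its brightest probe set. Every array labelled shTIGD1 was above every control array, but the difference of 0.08 (SE 0.03) did not pass (limma adjusted p = 0.132; 95% interval of the change 0.0666% to 11.9%). Its other 2 probe sets gave 0.10 and 0.12, also with separate groups and without passing (adjusted p = 0.133 and 0.0834 over all probe sets). These signals lie within 1 log2 unit of the highest on any array (14.8).

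ALDH1A3, the relative that makes retinoic acid in epithelia and is known as a stem cell marker in several carcinomas, had 4 probe sets that did not pass. The brightest read 7.71, 7.81 and 7.76 in shControl and 7.73, 7.73 and 7.69 in shTIGD1 (difference -0.04, SE 0.04, limma adjusted p = 0.472). The dimmer ones gave 0.20, 0.08 and 0.21, with the groups separate in 1 of the 3 (6.11, 6.32 and 6.35 against 6.48, 6.37 and 6.53). Brightest and dimmer probe sets thus differed in sign, and with the mean of all 4 the gene stood at 0.11 (adjusted p = 0.120). No direction is given for ALDH1A3.

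Of the mitochondrial members that oxidize acetaldehyde, neither passed. ALDH2, the main acetaldehyde dehydrogenase of ethanol metabolism, read 11.47, 11.42 and 11.45 in shControl and 11.47, 11.48 and 11.52 in shTIGD1. The lowest array labelled shTIGD1 lay just above the highest control (11.468 against 11.467), and the change of 3.35% had a 95% interval from -2.44% to 9.48% (limma adjusted p = 0.373). Its second probe set gave 0.07 (adjusted p = 0.267). ALDH1B1, a mitochondrial relative of ALDH2, read 8.26, 8.38 and 8.17 against 8.22, 8.10 and 8.22, with overlapping groups (difference -0.09, SE 0.06, limma adjusted p = 0.388). Its other probe set overlapped too, at -0.06. The arrays of a group spread more for ALDH1B1 (SD 0.11 and 0.07) than for ALDH2 (SD 0.02 and 0.03), so a change of the same size is harder to see in ALDH1B1.

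The ALDH3 members oxidize fatty and aromatic aldehydes, and here the 2 calls lie. ALDH3A1, a cytosolic and nuclear enzyme that removes aldehydes from lipid peroxidation, has 1 probe set, which read 12.95, 12.90 and 12.90 in shControl and 12.79, 12.77 and 12.80 in shTIGD1. The groups were separate and ALDH3A1 fell by 0.13 on the log2 scale as deposited (SE 0.03, limma adjusted p = 0.0307), a change of -8.78%, but turned to 0.08 and 0.20 when levelled on hybridization and poly-A controls. Leaving out any 1 of the 6 arrays ended the call (adjusted p from 0.0631 to 0.0902, difference from -0.14 to -0.12).

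ALDH3A2, the fatty aldehyde dehydrogenase of the endoplasmic reticulum whose loss causes Sjögren-Larsson syndrome, was the only member with several probe sets in which the groups were separate throughout and any passed. The brightest read 11.05, 11.05 and 11.08 in shControl and 11.21, 11.16 and 11.22 in shTIGD1 (difference 0.14, SE 0.03, limma adjusted p = 0.0316), a rise of 9.98%. A second read 10.16, 10.15 and 10.09 against 10.25, 10.25 and 10.34, a difference of 0.15 that just missed (adjusted p = 0.0525 over all probe sets). The dimmest, 11739097_x_at, rose from 9.79, 9.83 and 9.81 to 10.12, 10.07 and 10.13, or 1.23-fold (adjusted p = 0.00338).

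The size of the ALDH3A2 rise thus differed between probe sets. The offset between probe sets on an array has no meaning as a level, and only its shift between groups is read here. Within the same array, the dimmest minus the brightest probe set was -1.25 ± 0.03 in shControl and -1.09 ± 0.003 in shTIGD1 (SD, n = 3 each). The call on the brightest ended without shControl replicate 1, 2 or 3 or without shTIGD1 replicate 1 or 3 (adjusted p = 0.0877, 0.0823, 0.0604, 0.0984 and 0.0998 in that order) and after a repeated quantile normalization (adjusted p = 0.0677), and the gene did not pass with its second brightest probe set (0.15, adjusted p = 0.0619). The dimmest probe set passed in all 6 fits that left out 1 array, with an adjusted p of at most 0.0187.

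ALDH3A1 and ALDH3A2 are neighbours on chromosome 17, with 1 protein-coding gene, SLC47A2, annotated between them. They moved apart: ALDH3A2 minus ALDH3A1 on the same array was -1.90, -1.85 and -1.82 in shControl and -1.58, -1.60 and -1.57 in shTIGD1. The difference between the genes thus shifted by 0.27, a value that no levelling of whole arrays changes. This pair was chosen after its values were seen and was not tested.

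ALDH3B1, a membrane-attached relative that oxidizes lipid-derived aldehydes, showed no such pattern. Its brightest probe set read 11.50, 11.54 and 11.54 in shControl and 11.57, 11.52 and 11.56 in shTIGD1 (difference 0.02, SE 0.03, limma adjusted p = 0.657). The other probe sets stood at -0.02 with overlapping groups and at -0.09 with separate groups, and neither passed. The sign of ALDH3B1 differs between its probe sets, and the mean of all 3 was -0.03.

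**Figure D3:**
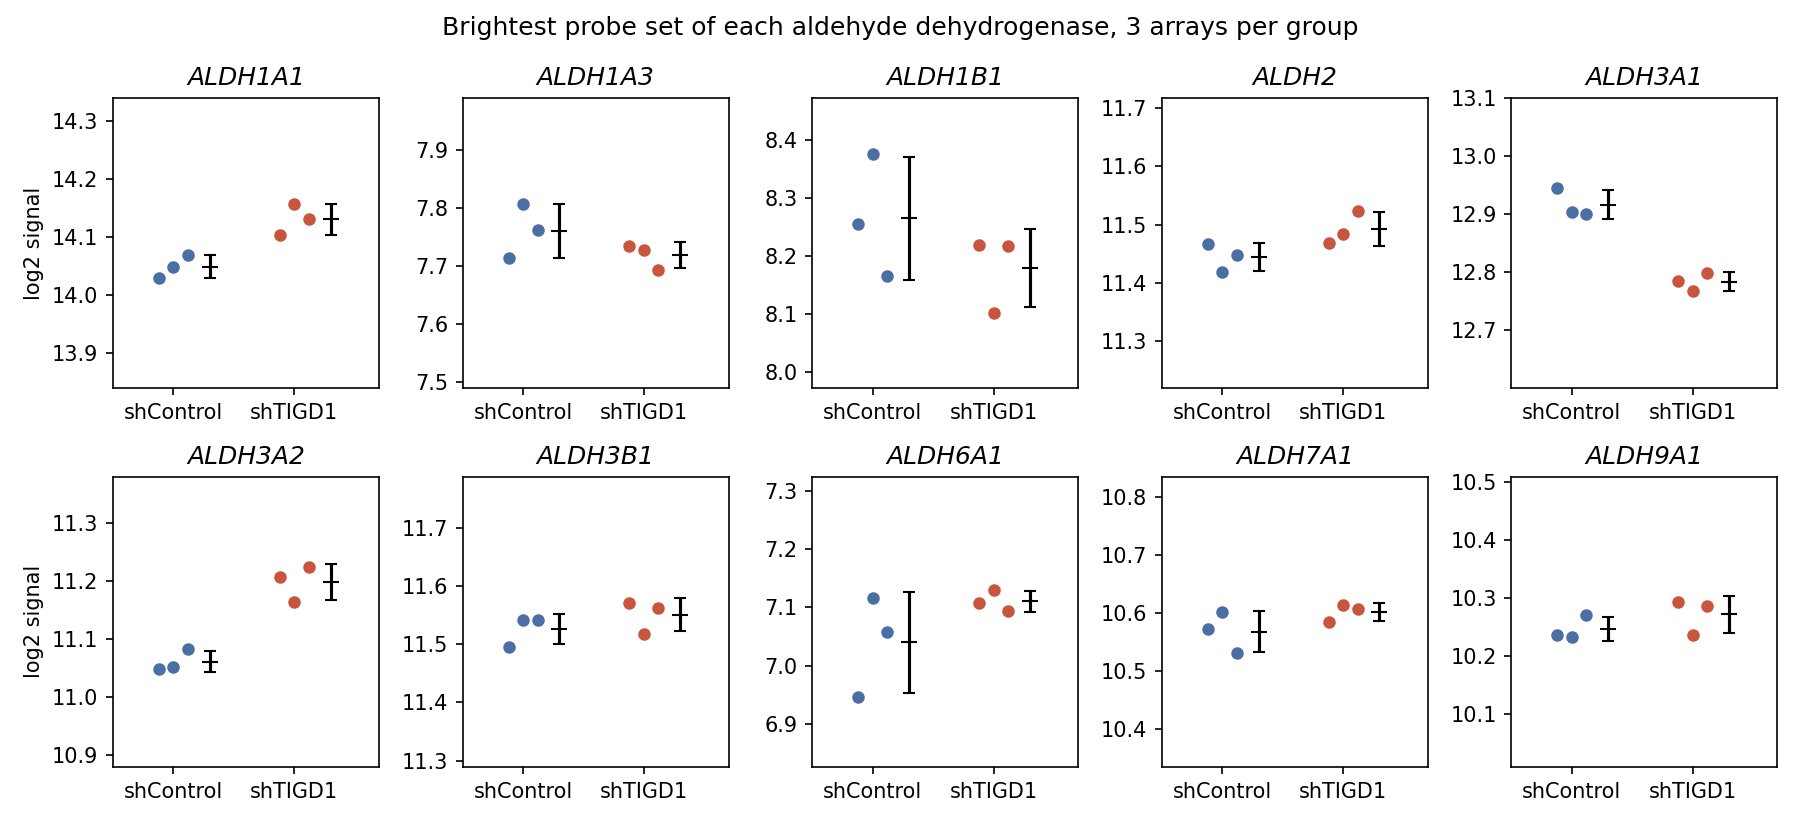
Log2 signal of the brightest probe set of each of the 10 members on each array (points; blue shControl, red shTIGD1), with the mean and SD of 3 arrays in black; every panel spans 0.5 log2 units. The groups do not overlap for ALDH1A1, ALDH2, ALDH3A1 and ALDH3A2, and the groups of the other 6 do.

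The remaining members act on amino acids and amines, and their brightest probe sets did not pass. ALDH6A1, the mitochondrial methylmalonate semialdehyde dehydrogenase of valine breakdown, has 1 probe set, at 6.94, 7.12 and 7.06 in shControl and 7.11, 7.13 and 7.09 in shTIGD1. Those groups overlapped (difference 0.07, SE 0.05, limma adjusted p = 0.365), with shControl replicate 1 the lowest of the 6.

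ALDH7A1, also called antiquitin, acts in lysine breakdown and is the gene of pyridoxine-dependent epilepsy. Its brightest probe set read 10.57, 10.60 and 10.53 in shControl and 10.58, 10.61 and 10.61 in shTIGD1 (difference 0.03, SE 0.03, limma adjusted p = 0.529). Another 2 lay at 0.03 and 0.003 and overlapped as well. The dimmest, 11727009_at, differed from these: it read 6.87, 6.67 and 6.71 in shControl and 6.32, 6.35 and 6.24 in shTIGD1. The brightest (11754201_s_at) and the others (11752502_s_at and 11752503_x_at) carry the s or x marks explained below. The dimmest carries neither mark.

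That probe set fell by 0.45 on the log2 scale (SE 0.06, adjusted p = 0.00417 over all probe sets), a change of -26.6% and the largest of any of the 26. It passed in all 6 fits that left out 1 array (at most 0.0192) and kept its sign when levelled on hybridization (-0.24, adjusted p = 0.0287) and poly-A controls (-0.11, adjusted p = 0.216, no longer past). Within the same array it lay 3.82 ± 0.11 below the brightest ALDH7A1 probe set in shControl and 4.30 ± 0.06 below it in shTIGD1 (SD, n = 3 each). What part of the transcript each probe set reads was not analysed here, and no direction is given for ALDH7A1 as a gene.

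ALDH9A1, which oxidizes aminoaldehydes and takes part in carnitine synthesis, also had probe sets that disagreed in size. The brightest overlapped, at 10.24, 10.23 and 10.27 in shControl and 10.29, 10.24 and 10.29 in shTIGD1 (difference 0.03, SE 0.03, limma adjusted p = 0.643). The other 2 rose. 11746668_a_at went from 9.001, 8.99 and 8.96 to 9.31, 9.26 and 9.25, or 1.22-fold (adjusted p = 0.00354 over all probe sets).

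11760533_x_at read 8.23, 8.09 and 8.31 in shControl and 8.54, 8.57 and 8.56 in shTIGD1, or 1.27-fold higher (adjusted p = 0.00907). Both passed in all 6 fits without 1 array, with adjusted p up to 0.0185 and 0.0363. Relative to the brightest on the same array they were higher by 0.26 and 0.32 in the arrays labelled shTIGD1. With the mean of all 3 probe sets ALDH9A1 passed as higher, at 0.22 (adjusted p = 0.00442), so its call rests on which probe sets stand for the gene.

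Over all 26 probe sets, 4 passed as higher and 2 as lower (23.1%), beside 22.5% of all 45278 probe sets. The groups did not overlap in 14 (11 above and 3 below the control arrays), against 41.3% of all probe sets (19.6% above and 21.6% below), and 19 of the 26 differences were above 0. Probe sets of a gene share their transcripts and are not replicates. None of the 6 called reached 1.5-fold, as 1.41% of all probe sets did. The median difference of the 26 was 0.06, against -0.02 over all probe sets. The member calls with the largest sizes (0.29, 0.29, 0.34 and -0.45) all came from probe sets that were not the brightest of their gene. In the names, x marks probe sets in which some probes may hybridize to other transcripts and s those shared between genes, per the array maker's scheme; 7 and 2 of the 26 carry these marks, as do 2 of the 6 that passed.

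**Figure D4:**
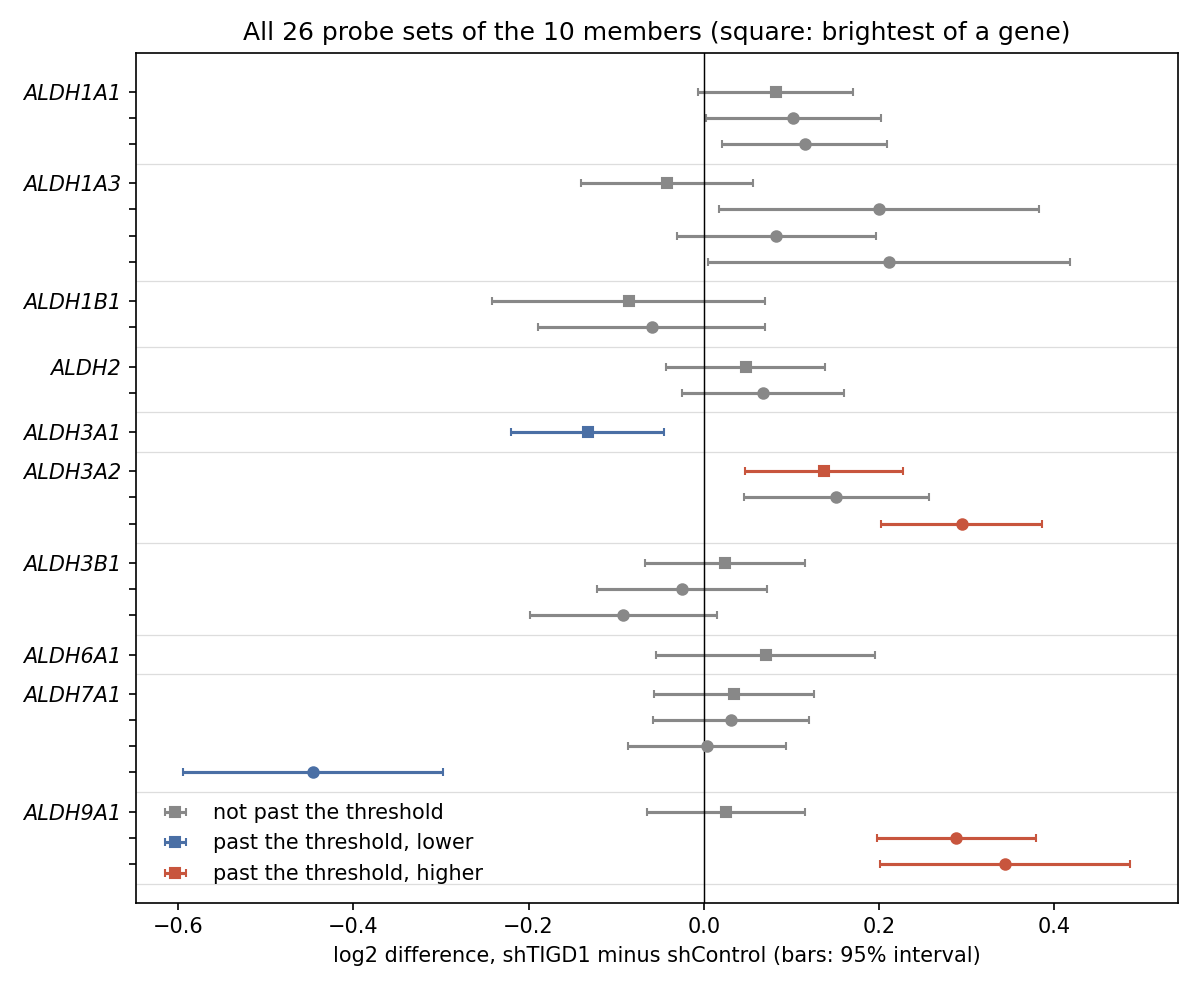
Log2 difference, shTIGD1 minus shControl, of each of the 26 member probe sets with its 95% interval from the fit over all probe sets; squares are the brightest of a gene, and colours give the call (red higher, blue lower, grey not past). ALDH3A2 lies right of 0 throughout, while single probe sets of ALDH7A1 and ALDH9A1 stand apart from the brightest of the same gene.

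Another 9 human aldehyde dehydrogenases were measured outside the set. With the brightest probe set, 0 of 9 (ALDH1A2, ALDH1L1, ALDH1L2, ALDH3B2, ALDH4A1, ALDH5A1, ALDH8A1, ALDH16A1 and ALDH18A1) passed by limma, with 2 at an unadjusted p under 0.05 and a median of -0.11, where 23.8% of all genes passed. ALDH16A1 missed as deposited (-0.11, adjusted p = 0.0539) and passed as lower after repeated quantile normalization (-0.13, adjusted p = 0.0327) and with equal array medians (-0.12, adjusted p = 0.0472), but turned positive under both control levellings. ALDH3B2 had the largest difference, -0.16 (adjusted p = 0.522). Of their 20 probe sets 1 passed, the second one of ALDH8A1 (-0.37, adjusted p = 0.0460), at a mean signal under 4.

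The counts for the pathway lists below use the brightest probe set of each gene and stand beside 9.81% of all genes higher and 14% lower. The lists are small, and their counts in either direction are given as a description and were not tested against that background. Alcohol and retinol dehydrogenases, only some of which make aldehydes that the ALDH1 enzymes oxidize, had 2 of 16 past the test as higher and 2 as lower (median -0.002). This is near the 23.8% of all genes that passed. The 39 probe sets of this list gave 8 higher and 2 lower, beside 11.7% and 10.8% of all probe sets. RDH10, the main retinol dehydrogenase of retinoic acid synthesis, rose by 0.37 (SE 0.05, limma adjusted p = 0.00413), and ADH5, which also removes formaldehyde, by 0.15. DHRS9 (-0.26) and RDH13 (-0.20) fell as deposited, but DHRS9 turned positive under poly-A and RDH13 under both control levellings. The DHRS9 call also ended after repeated quantile normalization (-0.25, adjusted p = 0.0563) and under hybridization levelling (-0.05, adjusted p = 0.558). Among the retinoic acid binding proteins, receptors and CYP26 enzymes 1 of 11 rose and 0 fell (median -0.01), with 2 at an unadjusted p under 0.05 by limma. It was STRA6, the cellular receptor for the retinol carrier, which rose by 0.64 (SE 0.03, limma adjusted p = 0.000280). Of the 37 probe sets of this retinoic acid list, 4 were higher and 3 lower.

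NRF2, a regulator of antioxidant genes known to be constantly active in A549 cells, and its targets had 2 of 14 higher and 2 lower (median 0.02), near the 23.8% of all genes. Over the 34 probe sets of this list 9 were higher and 5 lower, beside 11.7% and 10.8% of all probe sets. SRXN1 (0.32), which repairs oxidized peroxiredoxins, and ME1 (0.13), a source of NADPH, rose. HMOX1 (-0.40), heme oxygenase, and KEAP1 (-0.17) fell as deposited; KEAP1 turned positive under both control levellings and HMOX1 no longer passed under poly-A levelling (-0.07, adjusted p = 0.223). AKR1C2, an aldo-keto reductase with near-identical relatives, was chosen after its values were seen: its brightest probe set gave 0.04 and did not pass, while its other 4 passed as higher at 0.32 to 0.55. The aryl hydrocarbon receptor, which binds planar pollutants and is known to induce ALDH3A1 in rodent liver, and its targets had 1 of 6 higher and 3 lower (median -0.19), against 9.81% and 14% of all genes. The receptor's repressor AHRR fell by 0.72 (SE 0.09) and the target CYP1B1 by 0.25, while TIPARP rose by 0.34. CYP1B1 no longer passed under hybridization levelling (-0.04, limma adjusted p = 0.430) and turned positive under poly-A levelling. For ARNT, the receptor's partner, the brightest probe set fell by 0.36, but the other 4 overlapped between groups and did not pass (-0.09 to -0.02), and the call ended under both control levellings (adjusted p = 0.0822 and 0.694). AHRR and TIPARP each have another probe set that did not pass (-0.13 and 0.08). Of the 19 probe sets of this list, 1 was higher and 5 lower.

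The pathways around ALDH6A1 and ALDH7A1 held calls in both directions, as did all genes (9.81% higher and 14% lower). In valine and branched-chain breakdown 3 of 12 rose and 2 fell (median 0.06): DBT (0.29) and BCKDHB (0.24) of the branched-chain ketoacid dehydrogenase and HIBADH (0.23), which makes the substrate of ALDH6A1, rose. BCAT2 (-0.24), the mitochondrial aminotransferase, fell as deposited. It no longer passed under hybridization levelling (-0.03, limma adjusted p = 0.541) and turned positive under poly-A levelling. Over the 40 probe sets of this list 9 were higher and 5 lower, beside 11.7% and 10.8% of all probe sets. In lysine breakdown 1 of 7 genes rose and 2 fell (median -0.11), while of its 18 probe sets 1 was higher and 8 lower. CRYM, a ketimine reductase, rose by 0.39, DLST (-0.51) fell, and DHTKD1 (-0.13) fell as deposited but turned positive under both control levellings.

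For the substrates of ALDH3A2, fatty aldehyde formation and sphingosine phosphate breakdown had 2 of 10 higher and 1 lower (median 0.02), beside 23.8% of all genes past the test. The 26 probe sets of this list gave 5 higher and 2 lower, beside 11.7% and 10.8% of all probe sets. AGMO, which cleaves ether lipids to fatty aldehydes, rose by 0.40 (SE 0.05, limma adjusted p = 0.00413). CYP4F12 rose by 0.15 with its brightest probe set, while its other 2 overlapped and did not pass (0.03 and -0.09). FAR1, which makes fatty alcohols from fatty acyl-CoA, was chosen after its values were seen: its brightest probe set gave -0.02 and did not pass, while its other 3 passed as higher (0.40, 0.49 and 0.47). SPHK1, a sphingosine kinase, fell by 0.22 as deposited. It no longer passed under hybridization levelling (-0.008, limma adjusted p = 0.913) and turned positive under poly-A levelling. For ALDH9A1, amine oxidation and the polyamine, carnitine and betaine genes had 2 of 12 higher and 0 lower (median -0.09), with 5 at an unadjusted p under 0.05 by limma, against 23.8% of all genes past the test. Of the 32 probe sets of this list, 7 were higher and 0 lower. PAOX, which oxidizes acetylated polyamines to aminoaldehydes, rose by 0.63 (SE 0.06, limma adjusted p = 0.00116), and TMLHE, the first enzyme of carnitine synthesis, by 0.37.

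The genes most like the called members in their pattern over the 6 arrays were found by the root mean square difference between profiles centred on their mean, among 10757 other genes with a mean signal of at least 6. For ALDH3A2 they were SNRPG (0.005 log2 units), LZTS3 (0.01) and C19orf33 (0.01). For ALDH3A1 they were NDUFA3 (0.005), NUDT3 (0.007) and VDAC2 (0.008). The points share the 2 groups and 6 arrays, so the measure mostly finds genes with a difference of the same size.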

How the data were processed

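Total RNA was amplified and biotin-labelled with a 3′ IVT kit and read on Affymetrix 1-colour arrays, per the labels' protocols. The authors deposited log2 signals, 1 per probe set and array; the submitters' processing notes name GCOS and RMA (version not given in the sources used here). Values spanned 2.38 to 14.8, hence base 2. RMA makes the distributions of the arrays alike, so a shift shared by most genes is removed. Of 49395 probe sets, 102 controls were left out and 45278 had exactly 1 symbol. The probe set with the highest mean over 6 arrays stood for a gene, giving 18244 genes.

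Two-sided tests of 3 against 3 arrays used limma 3.58.1 (lmFit, eBayes; R 4.3.3), once over genes and once over all probe sets, each with Benjamini-Hochberg adjustment over the whole table and a threshold of 0.05. Intervals are 95%. The number of arrays limits the precision. The fit was tested on simulated data with 50 genes changed at each size: over 11 draws the test found 32% to 58% of those set to 1.2-fold, 90% to 100% of those set to 1.5-fold and at least 98% of those set to 2-fold, with 5 to 14 false calls per draw among 172 to 187. Python 3.11.15 and pandas 2.3.3 read the sequences.

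Members and lists were chosen with earlier results of these data known. Of 101 entries in 9 pathway lists, 97 matched and the others were not analysed here. Named were all members, up to 4 genes per list with the largest change past the threshold (or the largest change where none passed), TIGD1, and the 3 genes most like each of the 2 members with the largest called change. Other list genes named (the 9 further aldehyde dehydrogenases and cell markers) were given as lists. Alternatives covered the choice of probe set, normalization, control levelling, dim genes, variance model, replicate block and single arrays left out.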

Additional observations from a re-analysis of the deposited data

How the results depend on the processing

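Member counts were small, so single genes move them. The 1 member higher and 1 lower became 8 and 0 when arrays were levelled on hybridization controls, and 10 and 0 with poly-A controls; over probe sets the 4 and 2 became 21 and 1, and 25 and 0. Over all genes the 1789 higher and 2551 lower became 8735 and 361, and 13954 and 119. TIGD1 turned to 0.15 and 0.28 (adjusted p = 0.0388 and 0.00227), the median of all genes to 0.17 and 0.30, ALDH1A3 to 0.17 and 0.29, ALDH1B1 to 0.12 and 0.25 and ALDH3A1 to 0.075 and 0.20. This follows from the value added to every gene. With the mean of all probe sets 2 members were higher and 1 lower, beside 2250 and 2492 of all genes. ALDH1A3 (0.11), ALDH3B1 (-0.031) and ALDH7A1 (-0.094) changed sign there. With the second brightest probe set ALDH3A2 (0.15, adjusted p = 0.0619) and ALDH3A1 (-0.13, adjusted p = 0.0529) lost their calls and ALDH9A1 (0.29, adjusted p = 0.00443) gained one, leaving 1 higher and 0 lower, and ALDH1A3 (0.20) and ALDH3B1 (-0.024) changed sign. A repeated quantile normalization left 0 members higher and 1 lower, beside 1772 and 2795 of all genes. With genes under a signal of 6 left out, and with trend and robust variance, 2 members were higher, ALDH1A1 being added (limma adjusted p = 0.0486 and 0.000905). In each case 8 probe sets were higher. Calls over all genes rose too, to 2200 higher and 3100 lower of 10758, and to 2440 and 3362 of 18244. The cause was not tested.

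Leaving out each array in turn gave 0 to 1 members higher, 0 lower, and 1 probe set lower; over all genes it gave 1177 to 1474 higher and 1564 to 1912 lower, from fewer samples. With the replicate number as a block, 0 members were higher and 0 lower, 1 probe set was lower, and all genes gave 1098 and 1293. Same-numbered arrays deviated from their group means with correlations of -0.03, -0.13 and -0.09, and 0 of 6 arrays matched their own number best, so the samples share only a number. Array weights, equal medians and a signal of at least 5 moved no member or gene count by over 1.5 times.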
